A study of Mus musculus with 12 samples.

Results

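Ependymal cells of the adult lateral ventricular wall were set against embryonic radial glia, 3 arrays against 3, over every named gene that these 6 arrays could detect. The ependymal cells came from adult C57Bl/6 mice and were sorted as CD133-positive, CD24-positive cells without CD45 and CD34. The radial glia came from the forebrain of embryos of the same strain at embryonic day 14.5 and were sorted as CD133-positive cells without CD24, CD45 and CD34. Cell type, age, the part of the brain taken (ventricular wall or forebrain) and the use of CD24 in the gate thus all separate the 2 groups and cannot be told apart. Another group, ependymal cells sorted from adult spinal cord with the gate used for the ventricular wall, is quoted only where its level bears on a gene described here. RNA was amplified in 2 rounds and hybridised to Illumina bead arrays, and the labels give each group 3 independent biological replicates. Of the 12 arrays of the series 6 were used, and a gene entered when a probe of it had a detection p-value under 0.01 on 3 or more of them, which 8502 of the 17711 named genes on the array did.

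Ependymal cells are the epithelium of the brain ventricles, and most of those on the lateral wall carry tufts of motile cilia that stir the cerebrospinal fluid. They descend from radial glia, the elongated stem cells of the embryonic brain, which bear a single primary cilium, divide at the ventricular surface and give rise to neurons and later to glia. A motile cilium differs from a primary cilium in its dynein arms, radial spokes and central pair of microtubules, while both kinds are built and supplied by intraflagellar transport.

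Levels below are normalised log2 signals, listed in the order of replicates 1, 2 and 3, and differences are ependymal minus radial glia on the log2 scale with the standard error. A gene was called when limma's adjusted p was under 0.05. The ependymal arrays detected 11660 to 12132 of 46632 probes and the radial glia arrays 12273 to 13487. Array profiles correlated at 0.826 to 0.869 within the ependymal group, at 0.945 to 0.966 within radial glia and at 0.519 to 0.631 between them, so the ependymal arrays were the more variable, with a median SD per gene of 0.60 against 0.32. Ependymal replicate 1 missed 451 genes that the other 5 arrays detected, against 182 and 220 for replicates 2 and 3. In all, 3129 genes (36.8%) were called, 1452 higher (17.1%) and 1677 lower (19.7%) in ependymal cells. Of the called genes 3126 did not overlap between the groups, and of all genes tested 4495 (52.9%) did not. A lack of overlap thus adds little to a call. The count of lower genes was 1060 without radial glia replicate 1 and 1027 without replicate 3. The call rate alone is therefore high, and each list below is read against it. Because a gene detected in 1 group only had to differ, counts are also given over the genes detected on all 6 arrays, of which 15.4% were higher and 13.9% lower. A difference for a gene seen on 1 or 2 arrays of its lower group includes signals below detection, and its size is uncertain. The median difference over all genes tested was -0.27, and 297 genes were called with a 16-fold or larger rise and 250 with a fall of that size. As the arrays hold bulk RNA, fewer cells of a type and less RNA per cell cannot be told apart.

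**Figure D1:**
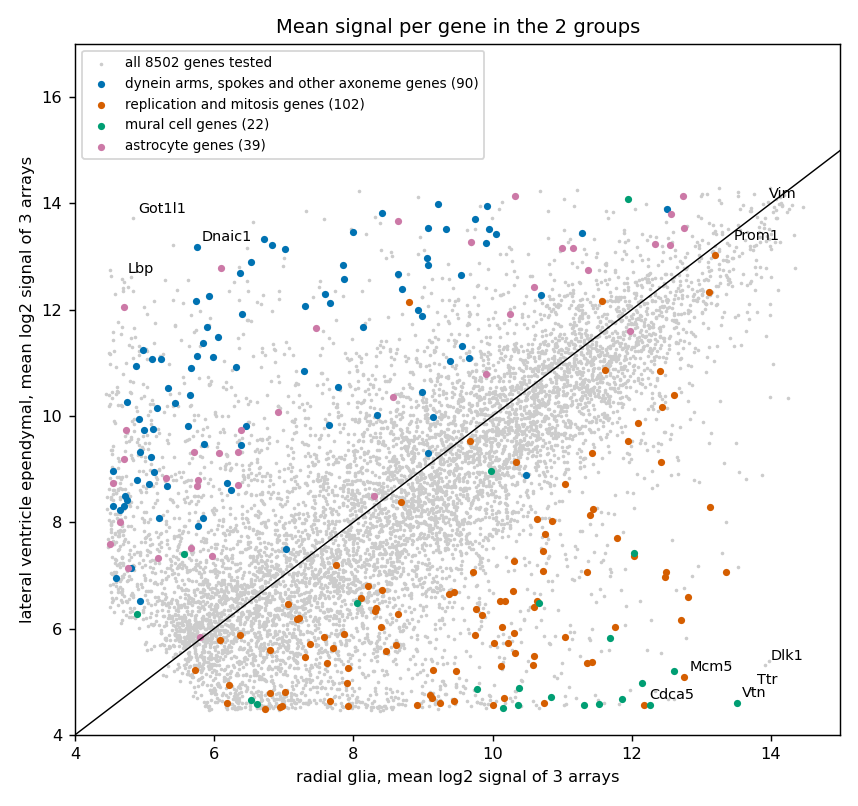
Mean log2 signal of each of the 8502 genes on the 3 radial glia arrays (horizontal) and the 3 ependymal arrays (vertical), with 4 sets of listed genes in colour. The line marks equal signal. Most axoneme genes lie above it in the upper left, and most replication, mitosis and mural cell genes lie below it.

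The gene behind CD133, the antigen shared by both sorts, read alike in the groups. Prom1 was at 13.23, 12.88 and 13.51 on the ependymal arrays and at 13.35, 13.52 and 13.31 on the radial glia arrays, a difference of -0.18 ± 0.29 (adjusted p = 0.647) that was within the spread of the arrays. Cd24a was at 9.45, 8.31 and 6.99 in ependymal cells and was detected on 0 radial glia arrays, where it was at least 6.57-fold lower. That difference repeats the gate and is no finding. The probes of Ptprc, which encodes CD45, and of Cd34 were detected on 0 arrays of either group.

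The markers of the 2 labelled cell types gave a split answer. Of 7 ependymal markers 4 were tested and all 4 were higher: Foxj1, Mia, Dynlrb2 and Fam183b. Each was also detected on all 3 radial glia arrays. The single probe of Tmem212, another of the 7, was detected on 0 of the 6 arrays, and Ccdc153 and Rarres2 had 0 probes. Mia, a secreted cartilage protein, was at 13.24, 13.51 and 13.52 against 6.88, 8.11 and 9.56. Of 7 radial glia markers 6 were tested, and 2 were lower in ependymal cells, Pax6 and Hes5, while 1, Slc1a3, was higher. The single probe of Fabp7, a fatty acid-binding protein much used as a radial glia marker, was detected on 0 of the 6 arrays. The summed signal of the 6 tested markers ran from 14.48 to 14.84 in ependymal cells and from 14.32 to 14.47 in radial glia, with Vim the larger part of it on every array.

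**Figure D2:**
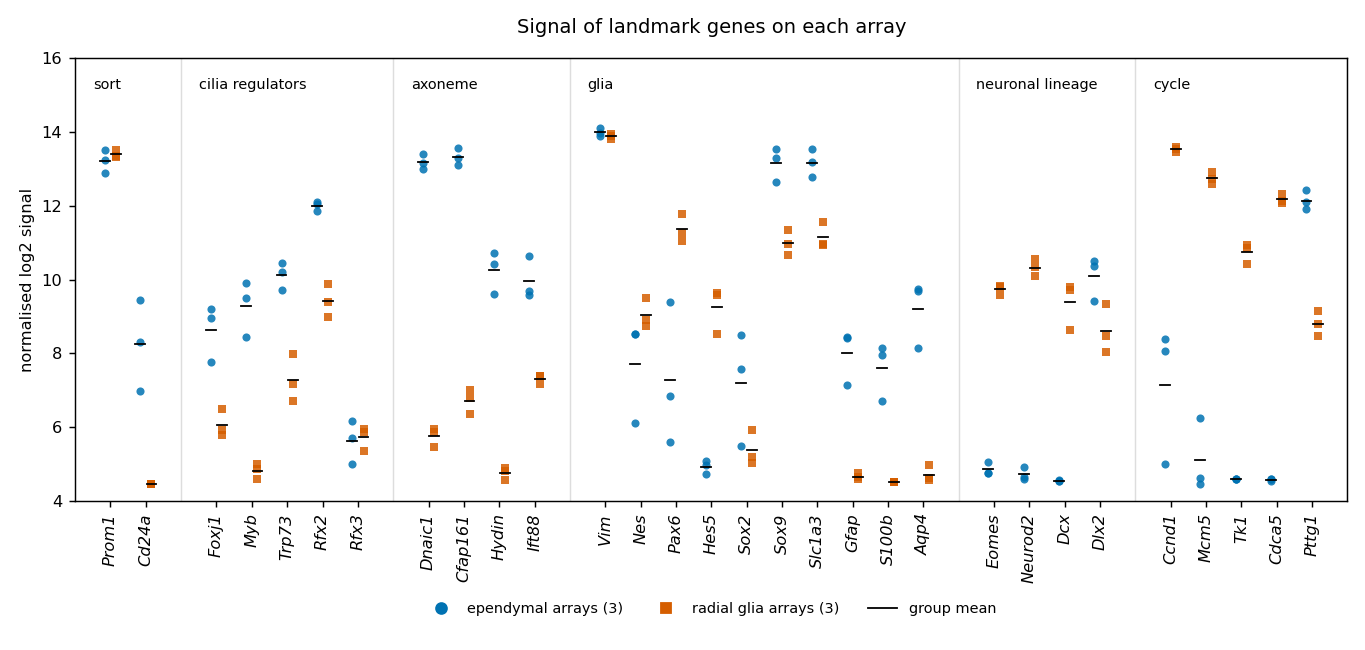
Normalised log2 signal of landmark genes on each of the 3 ependymal arrays (circles) and 3 radial glia arrays (squares), with the group means as bars. Vim and Prom1 overlap near the top of the range, the cilia regulators and axoneme genes other than Rfx3 are higher on all 3 ependymal arrays, and the cycle genes other than Pttg1 are higher on all 3 radial glia arrays.

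Of 14 tested regulators of the multiciliated state 7 were higher and 2 lower, and among the 6 detected on all 6 arrays 4 were higher and 0 lower. Myb, which acts early in the programme, was at 9.49, 9.89 and 8.44 against 4.59, 4.98 and 4.85, and it was detected on 0 radial glia arrays and at least 13.4-fold higher. Foxj1, the factor that commits cells to motile cilia, read 8.94, 9.20 and 7.75 against 5.79, 5.93 and 6.47 (2.57 ± 0.45, adjusted p = 0.00521). The groups did not overlap, and the ependymal replicates spread more than those of radial glia. Trp73, a p53 relative needed for multiciliated cells, was higher by 2.84 ± 0.42 and Rfx2, of the RFX family of cilia gene activators, by 2.58 ± 0.33. Deup1, which builds the deuterosomes that multiply centrioles, was higher by 3.08 ± 0.50 and was detected on 1 radial glia array. Rfx3 was near the limit of detection in both groups, at 4.99, 6.16 and 5.71 against 5.34, 5.86 and 5.95 (-0.10 ± 0.39, adjusted p = 0.861). The members that fell were Gmnn, which encodes geminin, an inhibitor of replication licensing (at least 2.18-fold lower), and Tfdp1, the partner of the E2F factors (-2.65 ± 0.51, not called without background correction, adjusted p = 0.104).

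Tested genes of the motile axoneme were higher almost without exception, and their 3 lists had the 3 highest medians. Across the dynein arm, radial spoke and other axoneme lists, 86 of 90 tested genes were higher and 0 lower. Of the 52 detected on all 6 arrays 48 were higher, and 18 of the 90 were detected on 0 radial glia arrays. The 3 lists have 34, 30 and 61 genes on the array, of which 21, 19 and 50 were tested. The lists were chosen with earlier results of these arrays in view, so their direction is not independent evidence.

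Dynein arm genes, which code for the motors that bend the cilium and for the factors that assemble them, were higher for 18 of 21 (median 3.35). Dnaic1, an intermediate chain of the outer arm, was at 12.99, 13.16 and 13.40 against 5.44, 5.86 and 5.94, a difference of 7.44 ± 0.29 (adjusted p = 2.75e-05). It was thus detected throughout radial glia, close to the floor of the array. Dnah1, a heavy chain of the inner arm, was at 13.48, 13.65 and 13.46 against 8.90, 8.88 and 9.42 (4.46 ± 0.29). The light chain gene Tctex1d1 and Ttc25, a docking factor of the outer arm, were detected on 0 radial glia arrays and were at least 18.3-fold and 9.55-fold higher. The members not called were 3 assembly factor genes, Wdr92, Dnaaf2 and Dnaaf1. Dnaaf1 read 7.36, 10.09 and 9.21 against 10.60, 10.14 and 10.71 (-1.60 ± 0.68, adjusted p = 0.11), and its kept probes disagreed, since their mean was higher by 2.07. Without ependymal replicate 2 the brightest probe was called lower (adjusted p = 0.0356).

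Radial spoke, central pair and nexin link genes were higher for all 19 tested, 9 of them detected on all 6 arrays, with a median of 4.19. Hydin, a giant central pair protein, was at 10.72, 10.43 and 9.61, was detected on 0 radial glia arrays and was at least 26.4-fold higher. Rsph4a, a spoke head protein, was at 12.07, 11.12 and 10.21 against 5.93, 4.81 and 6.52 (5.38 ± 0.62). Cfap70 was higher by 5.54 ± 0.34, Ak8, an adenylate kinase, by 5.43 ± 0.45, Ccdc65, a nexin link protein, by 5.19 ± 0.45 and the kinesin gene Kif9 by 5.25 ± 0.51, with radial glia detection on 1 or 2 arrays for each. The smallest difference of the list was 1.38. Nme7, one of the 19, has several probes that were called in opposite directions, so its change of 3.39 ± 0.34 rests on the brightest.

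Among tektins and other axoneme proteins 49 of 50 were higher (median 4.45), Cfap410 being the one that was not called (0.47 ± 0.37). Cfap161, a protein of the lumen of the microtubule doublets, was at 13.12, 13.30 and 13.56 against 6.35, 7.01 and 6.77 (6.61 ± 0.31, adjusted p = 3.28e-05). Cfap43 was at 13.30, 12.92 and 13.45 against 5.77, 6.81 and 7.92, and Cfap100 at 12.12, 11.81 and 12.84 against 5.45, 6.23 and 6.08. All 3 were detected on every array of both groups, so their differences of 6.39 ± 0.55 for Cfap43 and 6.34 ± 0.39 for Cfap100 lie between measured signals. Nek5, a kinase of the NIMA family, was higher by 6.42 ± 0.65.

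The genes that build and supply any cilium were also higher, by smaller amounts, and the difference between the lists was not tested. Of 48 tested genes of intraflagellar transport, the BBSome and the transition zone 39 were higher and 0 lower, with a median of 1.84. Most of them, 39, were detected on all 6 arrays, and 32 of these were higher. Over the 48 tested genes the higher count was 27, 29 or 28 without radial glia replicate 1, 2 or 3. Ift88, a core transport protein, was at 9.57, 9.68 and 10.63 against 7.37, 7.15 and 7.37 (2.66 ± 0.36). Tctn2, of the transition zone at the base of the cilium, read 12.23, 12.32 and 12.01 against 9.47, 9.11 and 9.55 (2.81 ± 0.28). Wdr60, of the dynein-2 motor, was higher by 2.83 ± 0.27. The kinesin-2 genes Kif3b (0.69 ± 0.34) and Kifap3 (1.09 ± 0.40) were not called, Kifap3 having an adjusted p of 0.0746 here and 0.0323 in the fit to all 12 arrays, nor was B9d2 (0.29 ± 0.34). The largest difference of this list was 3.98, for Ttc30b, which radial glia detected on 1 array, against 7.44 among the dynein genes.

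Promoters of these 4 cilia lists were read for GTTGCC, the core that RFX factors recognise, on both strands of the 300 bases from 250 before to 50 after each start in the RefSeq table (build GRCm38.p6). A gene counted when any of its promoters held the letters, and 1472 of the tested genes had several promoters. Of 138 tested members 122 had a promoter there, and 61 of those (50%) held the letters. The share was 15.7% of the 6961 tested genes with a promoter, counted alike. It was 12.5% of all 32851 promoters in the table, each counted singly. The share was 47.1% for dynein genes, 53.3% for spoke genes, 47.8% for other axoneme genes and 52.3% for transport genes. Below are the promoters of Cfap161 and Tctn2, the members of largest change in the axoneme and transport lists whose promoter holds the letters, with each match (GTTGCC or its complement GGCAAC) in capitals. Cfap161 lies at chr7:83794790-83795089 on the minus strand and has 3 matches that begin 66, 59 and 39 bases before the start, and Tctn2 lies at chr5:124598499-124598798 on the plus strand and has 1 just after the start. A match is a string of letters and not a measured site.
Cfap161: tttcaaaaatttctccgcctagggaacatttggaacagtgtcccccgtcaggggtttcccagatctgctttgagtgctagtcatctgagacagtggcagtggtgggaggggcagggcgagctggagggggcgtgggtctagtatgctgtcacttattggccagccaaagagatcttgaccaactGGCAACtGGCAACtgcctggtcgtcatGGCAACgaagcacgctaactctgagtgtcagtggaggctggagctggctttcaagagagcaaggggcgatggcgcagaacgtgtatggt
Tctn2: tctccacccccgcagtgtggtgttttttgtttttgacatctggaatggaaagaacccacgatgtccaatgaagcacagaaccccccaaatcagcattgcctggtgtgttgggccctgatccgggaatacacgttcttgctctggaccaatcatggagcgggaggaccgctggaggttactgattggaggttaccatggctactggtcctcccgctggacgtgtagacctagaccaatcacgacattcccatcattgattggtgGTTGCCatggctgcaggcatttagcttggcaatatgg

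Tubulins, the protein of the axoneme itself, moved in both directions, with 8 of 24 tubulin and tubulin ligase genes higher and 7 lower (3 and 6 of the 16 detected on all 6 arrays). Those that rose were mainly ligases of the Ttll family, which add glutamate or glycine chains to tubulin: Ttll3 was at 12.46, 12.42 and 11.75 against 7.53, 6.09 and 7.18 (5.27 ± 0.45), and Ttll6 was at least 17.2-fold and Ttll9 at least 4.18-fold higher. The tubulin genes that fell included Tuba1c, at 9.41, 5.73 and 7.14 against 13.21, 13.35 and 13.32 (-5.87 ± 0.86), Tubb6 (-5.78 ± 0.54, detected on 1 ependymal array), Tubb2b (-2.42 ± 0.39, not called in the fit to all 12 arrays, adjusted p = 0.158) and Tubb5 (-1.57 ± 0.26). Tuba1a was at 13.98, 13.82 and 12.01 against 12.78, 12.35 and 12.60 and was not called, with 1 ependymal array below all radial glia arrays, and without ependymal replicate 3 it was higher (adjusted p = 0.015). The higher count was 5 without radial glia replicate 1 or 2.

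The 12 largest fitted rises were genes outside the cilium lists, but 11 of the 12 were detected on 0 radial glia arrays, so this order uses signals below detection. The bounds of those 11 ran from 109-fold to 291-fold, and Dnaic1 with its measured rise of 7.44 cannot be ranked against them. All 12 were detected on all 3 spinal cord ependymal arrays. Got1l1, a relative of aspartate aminotransferase, was at 13.62, 13.77 and 13.76 against signals of 4.45, 5.15 and 4.88 that were below detection, at least 291-fold higher. Ucma, a vitamin K-dependent matrix protein of cartilage, read 12.82, 12.75 and 12.66 and was at least 148-fold higher. Prr29 was at least 138-fold higher, Ramp1, a receptor subunit for the peptide CGRP, at least 135-fold, Lbp, a plasma protein that binds lipopolysaccharide, at least 132-fold, and Htr5b, a serotonin receptor, at least 127-fold. Ccdc33, Lgals3, which encodes galectin-3, Ccdc121, Fam166c and Dnajc6, the clathrin uncoating factor auxilin, followed, and Mro, detected on 1 radial glia array, was higher by 7.81 ± 0.43. The 3 ependymal arrays lay closer together for Got1l1, Ucma, Prr29, Lbp and Ramp1 than the median SD of the group, 0.60 over all genes tested. The 12 were picked among called, non-overlapping genes detected on all 3 ependymal arrays, so a small spread is no separate finding. Of these 12 genes 2 also differed from spinal cord ependymal cells, Lbp by 2.75 and Prr29 by 1.32 (adjusted p = 8.25e-05 and 0.00759), against 8.09% of all genes called in that comparison.

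Genes listed as ependymal but outside the cilium were higher for 20 of 32 and lower for 4, and for 9 and 1 of the 16 detected on all 6 arrays. This list too was chosen with earlier results of these arrays in view, so its direction is not independent evidence. Traf1, a signalling adaptor of TNF receptors, was at 12.10, 12.67 and 11.37 against 4.78, 4.97 and 5.21 and was at least 91.2-fold higher. Fam216b and Gm973 were at least 52.9-fold and 74.3-fold higher. The members that fell were Zic1, a transcription factor of dorsal neural tissue (-5.85 ± 0.45, detected on 1 ependymal array), Igfbp7, an IGF-binding protein (-1.93 ± 0.27), the stress-induced gene Nupr1 (at least 2.23-fold) and Cdh2, which encodes N-cadherin (at least 2.13-fold). Cdh2 was detected on 0 ependymal arrays, at 5.64, 5.40 and 5.21 against 7.20, 6.70 and 6.75.

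Glial genes divided. Of 25 radial glia and neural stem cell genes 10 were lower and 3 higher, and 6 were higher without ependymal replicate 3. Of the 15 detected on all 6 arrays 4 were lower and 2 higher. Pax6, a transcription factor of cortical progenitors, was at 9.40, 5.58 and 6.85 against 11.27, 11.78 and 11.05 (-4.09 ± 0.92, adjusted p = 0.0132), with ependymal replicate 1 well above the other 2, and dropping radial glia replicate 2 ended the call (adjusted p = 0.0573). Igf2bp3, an RNA-binding protein of fetal tissue, was at 12.14, 11.85 and 11.47 in radial glia and at least 65.1-fold lower in ependymal cells, and its relative Igf2bp1 was at least 12.8-fold lower. Id1 and Id3, inhibitors of bHLH factors, were lower (-2.99 ± 0.50 and -3.16 ± 0.43). Egfr, the receptor that drives adult stem cell culture, fell by 2.25 ± 0.43. In the other direction Slc1a3, a glutamate transporter, was at 13.55, 12.77 and 13.19 against 10.97, 11.55 and 10.95 (2.01 ± 0.34), Sox9, a glial transcription factor, was higher by 2.17 ± 0.36, and Fam107a was at least 34.4-fold higher. Vim, which encodes vimentin, was near the top of the range in both groups, at 13.96, 13.90 and 14.11 against 13.82, 13.90 and 13.94 (0.10 ± 0.25, adjusted p = 0.768). Nes, which encodes nestin, read 8.52, 8.52 and 6.10 against 9.49, 8.74 and 8.91 and was not called (-1.34 ± 0.69, adjusted p = 0.173). Sox2 read 8.49, 7.58 and 5.49 against 5.19, 5.92 and 5.03 and was not called (1.81 ± 0.76, adjusted p = 0.105), but without ependymal replicate 3 it was higher (adjusted p = 0.00641).

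Most astrocyte genes were higher. Of 39 tested 31 were higher and 0 lower (median 2.39), and of 24 detected on all 6 arrays 18 were higher. Gpr37l1, a receptor of mature glia, was at 12.40, 12.06 and 11.67 and at least 91.2-fold higher. Apoe, the lipid carrier, was at 13.86, 13.76 and 13.39 against 8.99, 7.86 and 9.09 (5.03 ± 0.41). Ntsr2, a neurotensin receptor, and Aqp4, the glial water channel, were at least 18.5-fold and 12.6-fold higher. Gfap, the intermediate filament of astrocytes, was at 7.14, 8.45 and 8.41, at least 5.53-fold higher, and S100b, a calcium-binding protein of both cell types, was at 7.95, 8.14 and 6.70, at least 4.19-fold higher. Ependymal cells are known to express several genes of this list, among them Aqp4 and S100b. The part of astrocyte RNA in these differences was not tested.

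Notch genes, whose signal holds radial glia in the progenitor state, were lower for 10 of 21 and higher for 2, and for 4 and 2 of the 11 detected on all 6 arrays. The target genes Hes5 and Hes1 fell, Hes5 from 9.63, 8.52 and 9.58 in radial glia to below detection (at least 10.9-fold) and Hes1 while detected on all 6 arrays (-3.53 ± 0.31). Nrarp, a feedback inhibitor (-6.08 ± 0.56), and the glycosyltransferase gene Mfng (-5.77 ± 0.49) fell, each detected on 1 ependymal array. Of the receptors Notch1 fell by 1.52 ± 0.31, and Notch3, together with the target Heyl, was at least 15.9-fold and 20.5-fold lower. Notch3 and Heyl are mural cell genes too. Dtx1, which encodes the ligase Deltex, rose, at 11.49, 11.41 and 9.70 against 6.13, 6.21 and 6.41 (4.61 ± 0.52), and so did the ligand-like gene Dner (1.20 ± 0.33), whose call ended on dropping any single array other than ependymal replicate 1 (adjusted p = 0.0536 to 0.0969).

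Most cell cycle genes were lower. Of 102 tested replication and mitosis genes 81 were lower (79.4%) and 1 higher, and of the 33 detected on all 6 arrays 23 were lower. Replication and S phase genes were lower for 37 of 49 and higher for 0 (median -2.83, or -2.37 with undetected members at their bounds). Mcm5, a subunit of the replicative helicase, was at 12.60, 12.92 and 12.73 in radial glia against 4.45, 4.60 and 6.23 (-7.65 ± 0.51), with detection on 1 ependymal array. Tk1, thymidine kinase, was at 10.86, 10.43 and 10.93 and at least 30.8-fold lower, and Pole, the catalytic subunit of a replicative polymerase, at least 20.6-fold lower. Fen1, the flap nuclease, fell by 5.21 ± 0.44. Among those not called, Rpa1, the single-strand binding protein, read 12.64, 13.52 and 12.93 against 13.14, 13.35 and 13.12 (-0.17 ± 0.33), and Mcm4, another helicase subunit, was not called either (-0.78 ± 0.40, adjusted p = 0.166, or 0.0413 without ependymal replicate 3).

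Mitosis and cytokinesis genes were lower for 44 of 53 (median -3.03). Cdca5, which encodes the cohesin protector sororin, was at 12.09, 12.31 and 12.14 in radial glia and below detection on every ependymal array, at least 83.7-fold lower. Aurka, a spindle kinase (-6.01 ± 0.62), Nusap1, a spindle protein (-6.05 ± 0.64), and Top2a, the topoisomerase of dividing cells (-4.30 ± 0.65), fell, each with detection on 1 ependymal array. Kif23, a motor of the central spindle, still read 8.06 on ependymal replicate 3 (-6.55 ± 0.83). Cdca8, of the chromosomal passenger complex, still read 8.80 on ependymal replicate 2 (-6.30 ± 0.78). Pttg1 was the exception. This securin gene was at 12.42, 12.10 and 11.91 against 8.46, 9.14 and 8.78, a rise of 3.35 ± 0.31 (adjusted p = 0.000354).

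Cyclins, their kinases and inhibitors were lower for 12 of 19 and higher for 2, and for 3 and 1 of the 7 detected on all 6 arrays. Ccnd1, cyclin D1, was at 4.99, 8.39 and 8.06 against 13.53, 13.47 and 13.60 (-6.38 ± 0.87). Cdk1 was at least 11.7-fold lower and E2f2 at least 6.75-fold lower. The inhibitors did not move as a set: Cdkn1a, which encodes p21, was at 10.68, 10.36 and 8.60 against 6.48, 6.65 and 6.38 (3.37 ± 0.56, not called on the mean of its probes, adjusted p = 0.0606), whereas Cdkn1c, which encodes p57 (-3.64 ± 0.39), and Cdkn2c, which encodes p18 (-3.70 ± 0.29), fell. Without ependymal replicate 2 or 3 or radial glia replicate 2 or 3 the count of higher genes was 1. Cdk4, at 12.33, 12.86 and 12.30 against 11.83, 11.86 and 12.09, was not called (0.57 ± 0.29), and with the mean of its probes the difference was -1.39.

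Promoters of the cell cycle lists were read for the motifs these genes are known to carry. A gene again counted when any of its promoters held the letters. TTTGAA or TTCGAA, the letters of the cell cycle homology region, stood in 28 of 41 mitosis genes with a promoter (68.3%). That compares with 15.9% of genes tested and 19.2% of all promoters counted singly. CCAAT stood in 27 of 41 (65.9%) against 43.2% and 37.4%. GCGGGAAA or GCGCCAAA, the letters of E2F sites, stood in 10 of 41 replication genes with a promoter (24.4%). That compares with 3.36% of genes tested and 1.56% of all promoters. All were counted on both strands, and none was set to a test. The promoter of Cdca5 at chr19:6084847-6085146, plus strand, has 2 homology region matches 17 and 9 bases before the start, and that of Mcm5 at chr8:75109259-75109558, plus strand, has 1 E2F match 149 bases before it. They are shown as the members of largest change in each list that hold those letters, with the matches in capitals.
Cdca5: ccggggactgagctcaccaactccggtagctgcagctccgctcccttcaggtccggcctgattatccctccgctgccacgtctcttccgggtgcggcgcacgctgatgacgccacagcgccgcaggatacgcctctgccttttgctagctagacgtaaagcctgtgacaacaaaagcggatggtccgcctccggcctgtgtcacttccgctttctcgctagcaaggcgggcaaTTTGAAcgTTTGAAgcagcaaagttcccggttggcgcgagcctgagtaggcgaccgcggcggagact
Mcm5: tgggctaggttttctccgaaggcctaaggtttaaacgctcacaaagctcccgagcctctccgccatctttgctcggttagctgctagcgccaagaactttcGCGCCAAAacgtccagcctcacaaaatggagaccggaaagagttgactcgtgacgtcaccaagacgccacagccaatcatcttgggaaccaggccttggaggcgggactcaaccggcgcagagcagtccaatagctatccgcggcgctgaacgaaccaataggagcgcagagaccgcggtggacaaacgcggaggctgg

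Of 37 neuronal differentiation genes 20 were lower, 3 higher and 14 not called. Among them 11 were detected on all radial glia arrays and 0 ependymal arrays, and of the 14 detected on all 6 arrays 5 were lower and 1 higher. Neurod2, a factor of cortical neurons, was at 10.56, 10.09 and 10.33 in radial glia and at least 23.1-fold lower. Dcx, a microtubule protein of migrating neurons, was at 8.62, 9.80 and 9.71 and at least 12-fold lower, and Rbfox3, which encodes the neuronal marker NeuN, was at least 24.8-fold lower. Eomes and Neurog2, factors of intermediate progenitors, were at 9.83, 9.58 and 9.79 and at 9.54, 9.59 and 9.21 in radial glia, at least 15.3-fold and 12.5-fold lower. The radial glia arrays thus detected all 6 markers of intermediate progenitors and neurons on every array, with a summed signal of 11.85 to 11.96 against 7.49 to 7.75 in ependymal cells. The part of such cells in the other differences was not tested. Camk2b, a calcium-dependent kinase subunit, was at least 13.4-fold higher in ependymal cells.

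Forebrain transcription factors were lower for 15 of 30 and higher for 2. Of the 15 detected on all 6 arrays only 3 were lower and 2 higher, near the shares of all such genes. Fezf2, a cortical projection neuron factor, was at 4.85, 9.42 and 6.01 against 12.86, 12.88 and 12.51 (-5.99 ± 1.09), with ependymal replicate 2 standing apart. Dmrta2, a factor of the cortical hem and cortex, fell by 6.12 ± 0.79 and Bcl11a, a zinc finger factor of cortical neurons, was at least 19.1-fold lower. Dlx2, a factor of the ventral forebrain, was at 10.38, 9.41 and 10.52 against 8.47, 9.33 and 8.03 (1.49 ± 0.47, adjusted p = 0.0448). The call ended on dropping replicate 1 or 3 of either group (adjusted p = 0.0945 to 0.153). The count of higher genes was 1 without any single array but ependymal replicate 2. Against spinal cord ependymal cells Dlx2 was higher by 5.62 (adjusted p = 5.72e-06).

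Axon guidance genes were lower for 20 of 40 and higher for 2, and for 4 and 1 of the 15 detected on all 6 arrays. The netrin receptor gene Unc5b (-5.91 ± 0.63), Efnb1, which encodes ephrin-B1 (-3.90 ± 0.32), and Sema5a (-3.66 ± 0.51) fell. Sema3b, a secreted semaphorin, went the other way, at 11.28, 10.62 and 10.75 against 6.97, 5.17 and 6.81 (4.57 ± 0.53), and 1 gene was higher without radial glia replicate 1 or 2.

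Several genes of other cell types also differed. Of 22 mural cell and pericyte genes 18 were lower and 2 higher, with the lowest median of all lists (-5.57, or -4.58 with bounds), and 13 of the 22 were detected on all 3 radial glia arrays and 0 ependymal arrays. Of the 4 detected on all 6 arrays 2 were lower and 1 higher. Vtn, vitronectin, was at 13.74, 13.06 and 13.72 in radial glia, at least 210-fold above the ependymal arrays. Kcnj8, a potassium channel of pericytes, read 12.44, 12.20 and 12.17 there, Rgs5, a regulator of G protein signalling, 11.86, 10.70 and 11.38, and Higd1b 12.41, 11.69 and 12.34. Each was below detection on all 3 ependymal arrays and was at least 88.8-fold, 46-fold and 81.8-fold lower. Pdgfrb, the receptor by which mural cells are recruited, fell by 5.87 ± 0.54 and was detected on 1 ependymal array. Smooth muscle actin, Acta2, went against the list at 13.98, 13.96 and 14.32 against 12.29, 11.65 and 11.91 (2.14 ± 0.30), and the probes of Myh11 were detected on 0 arrays. The summed signal of the 5 tested mural markers was 13.97 to 14.33 in ependymal cells, nearly all of it Acta2, and 13.65 to 14.29 in radial glia. The higher count of the mural list was 1 without radial glia replicate 2 or 3.

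**Figure D3:**
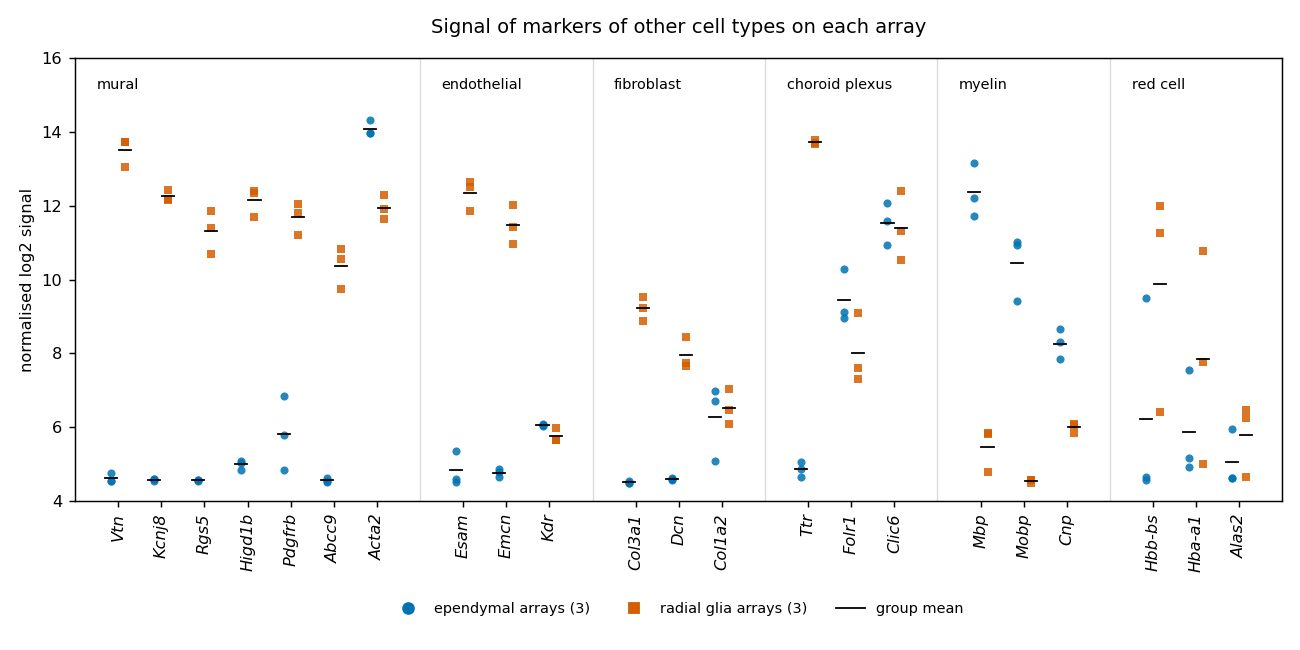
Normalised log2 signal of markers of other cell types on each of the 3 ependymal arrays (circles) and 3 radial glia arrays (squares), with group means as bars. Mural genes other than Acta2, and Esam, Emcn, Col3a1, Dcn and Ttr, are higher on all 3 radial glia arrays, while Mbp, Mobp and Cnp are higher on the ependymal arrays, and haemoglobin genes vary within both groups.

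Endothelial genes were lower for 10 of 19 and higher for 3, but 5 of the 19 were detected on all radial glia and 0 ependymal arrays, and of the 5 detected on all 6 arrays 1 was lower and 2 higher. Esam, an adhesion molecule of vessels, was at 12.65, 11.85 and 12.51 in radial glia and at least 93.2-fold lower in ependymal cells, and Emcn, endomucin, at least 51-fold. Of the defining markers Pecam1 and Cdh5 were detected on 0 of the 6 arrays and Cldn5 on 1 of each group, and Kdr, at 6.07, 6.03 and 6.06 against 5.65, 5.96 and 5.65, was not called. The glucose transporter gene Slc2a1 was higher in ependymal cells by 3.36 ± 0.35. Fibroblast and meningeal genes were lower for 15 of 19 and higher for 0, with 2 detected on all 6 arrays, of which 1 was lower. Col3a1, a fibrillar collagen, was at 9.54, 8.87 and 9.23 in radial glia and at least 10.7-fold lower, and Fbln1, fibulin, fell by 6.95 ± 0.60 with detection on 1 ependymal array, while Col1a1 and Lum were detected on 0 arrays.

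Of 15 choroid plexus genes 5 were lower and 4 higher, but of the 7 detected on all 6 arrays 0 were lower and 3 higher. Ttr, transthyretin, the main secreted protein of that epithelium, was at 13.69, 13.68 and 13.78 on the radial glia arrays and below detection on the ependymal arrays, at least 243-fold lower. Slc29a4, a monoamine transporter, fell by 4.91 ± 0.41. Kl, another defining gene, was detected on 0 arrays, and Folr1, the folate receptor, was at 9.13, 10.27 and 8.96 against 7.60, 7.29 and 9.09 and was not called (adjusted p = 0.0945), although without radial glia replicate 3 it was higher in ependymal cells (adjusted p = 0.0401). Calml4 rose by 3.67 ± 0.58. The summed signal of the tested markers was 11.66 to 12.26 in ependymal cells and 13.86 to 14.29 in radial glia. Of those 3 markers, Ttr, Folr1 and Clic6, only Ttr was called lower, and Folr1 and Clic6 were not called.

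Of 11 myelin and oligodendrocyte genes 6 were higher and 1 lower, and among the 5 detected on all 6 arrays 4 were higher and 0 lower. Mbp, myelin basic protein, was at 13.16, 11.73 and 12.23 against 5.83, 4.77 and 5.81 (6.91 ± 0.49), and Mobp at 11.02, 9.41 and 10.94, at least 30.4-fold higher. The Mbp probe read here was not detected on every radial glia array, but another of its 4 probes was detected on all 3. The size of the Mbp difference thus rests on the brightest probe. Cnp was higher by 2.27 ± 0.31. The probes of Mog were detected on 0 arrays, and Mag, not tested, was detected on at most 2 radial glia and 0 ependymal arrays. Olig2, the lineage factor, was at least 4.01-fold lower in ependymal cells. Without ependymal replicate 3 the count of lower genes was 4. Leukocyte genes were nearly all undetected, with 2 of 29 on the array tested, of which Laptm5, a lysosomal protein of blood cells, was higher (5.33 ± 0.75), while Ptprc, Aif1, Cx3cr1 and C1qa were detected on 0 arrays. Of 5 red cell genes 0 were called: Hbb-bs was at 4.63, 4.55 and 9.50 against 12.01, 11.25 and 6.41, so 2 radial glia arrays were high and radial glia replicate 3 was below ependymal replicate 3. The part that mural, vessel, choroid plexus, neuronal, myelin or blood RNA plays in the differences described here was not tested.

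IGF pathway genes were lower for 7 of 11 and higher for 1, and for 3 and 0 of the 6 detected on all 6 arrays. Igf2, the fetal growth factor, was at 13.97, 14.04 and 13.92 in radial glia against 4.58, 5.66 and 5.95, with detection on 1 ependymal array (-8.58 ± 0.41), and Igfbp4 fell by 2.63 ± 0.30, while Htra1, a protease that cleaves IGF-binding proteins, rose by 2.94 ± 0.29. Imprinted genes were lower for 7 of 19 and higher for 2, with 10 not called, and of the 10 detected on all 6 arrays 2 were lower and 2 higher. Dlk1, a Notch ligand relative, was at 14.01, 13.90 and 13.86 against 4.81, 4.67 and 6.45, with detection on 1 ependymal array (-8.61 ± 0.51). Mest, a hydrolase relative, was at 12.77, 12.25 and 12.55 and at least 106-fold lower, and Grb10, an adaptor of the insulin receptor, fell by 4.82 ± 0.61. Ndn, which encodes necdin, was at 13.87, 13.90 and 13.83 against 13.58, 13.65 and 13.88 and was not called, and Nnat, neuronatin, rose by 2.05 ± 0.38. The higher count of imprinted genes was 1 without radial glia replicate 3.

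The 12 largest fitted falls were Vtn, Ttr, Dlk1, Igf2, Mmp9, Tfap2c, Mest, Kcnj8, Mcm5, Cdca5, Esam and Foxs1. Mmp9, a matrix metalloprotease, was at 13.51, 13.21 and 13.46 in radial glia and at least 194-fold lower, and Tfap2c, transcription factor AP-2 gamma, which acts in cortical basal progenitors of the mouse, was at 12.40, 12.89 and 12.55 and at least 113-fold lower. Foxs1, a forkhead factor of pericytes, fell by 7.40 ± 0.43 and was detected on 1 ependymal array. Of the 12, 8 were detected on 0 ependymal arrays, so their order, and their place against genes such as Fbln1, uses signals below detection. Against spinal cord ependymal cells 2 of the 12 differed, Vtn by -4.87 and Mcm5 by -4.11 (adjusted p = 3.51e-06 and 0.000768), against 8.09% of all genes. On the spinal cord arrays 7 of the 12 were detected on 0 arrays and 2 on all 3. For a gene below detection in both ependymal groups this comparison could hardly give a call, so the lack of one says little.

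Of 28 BMP and TGF-beta genes 4 were higher and 6 lower, shares near those of all genes, and of the 18 detected on all 6 arrays 3 were higher and 2 lower. Bmp6 was at 9.33, 8.55 and 9.12 in ependymal cells and at least 11.1-fold higher, whereas Bmp4 was at 9.92, 8.21 and 9.61 in radial glia and at least 11-fold lower. The receptor gene Tgfbr2 rose by 2.21 ± 0.36. For this pathway the lower count was 3 without radial glia replicate 1 or 3. Of 33 Wnt genes 14 were lower and 3 higher, but of the 16 detected on all 6 arrays 2 were lower and 2 higher, again near the shares of all such genes. Rspo3, an enhancer of Wnt signals, and Sfrp2, a secreted Wnt antagonist, were at least 10.1-fold and 6.04-fold lower, and Fzd6, a receptor, rose by 2.65 ± 0.30. Without radial glia replicate 1 or 3 the lower count was 9, and without ependymal replicate 1 the higher count was 5. Of 8 hedgehog genes (6 detected on all 6 arrays) 2 were lower, among them Sufu, the inhibitor of Gli factors (-2.61 ± 0.32), and 1 was higher, Stk36, a kinase that in the mouse is needed for the central pair of motile cilia (2.77 ± 0.33). Without any 1 radial glia array the lower count was 1. The Hox genes tested, Hoxb1 and Hoxb4 of 37 on the array, were not called.

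Of 31 collagen and basement membrane genes 15 were lower and 7 higher, and of the 15 detected on all 6 arrays 6 were lower and 4 higher. Lama3 was at 9.55, 8.86 and 9.69 and at least 14.3-fold higher and Lamb3 rose by 3.98 ± 0.38, both being chains of epithelial laminin. Lamc3, a different laminin chain, was at 10.66, 10.13 and 10.28 in radial glia and at least 23.7-fold lower, and Nid1, nidogen, at least 24.5-fold lower. Without radial glia replicate 1 the count of higher genes was 4. Of 24 cadherin, claudin and connexin genes 7 were higher and 6 lower, with 1 each way among the 8 detected on all 6 arrays. Dsg2, a desmosomal cadherin, was at 11.78, 10.70 and 11.22 and at least 51.9-fold higher, and the tight junction genes F11r and Tjp3 rose, by at least 5.97-fold and by 2.94 ± 0.53. Gja1, connexin 43, was at 13.65, 13.05 and 13.14 against 9.95, 9.50 and 9.63 (3.58 ± 0.31), while Gja4, connexin 37 of vessels, was at least 56.3-fold lower. Proteoglycan and tenascin genes were lower for 10 of 17 and higher for 2 (2 and 1 of the 8 detected on all 6 arrays), with Gpc2, a glypican of the developing nervous system, at least 27.6-fold lower and Sdc4, a syndecan, higher by 3.11 ± 0.49.

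Of 164 solute carriers 41 were higher and 27 lower, and of the 95 detected on all 6 arrays 27 were higher and 12 lower. Both lower shares were a little under those of all such genes, 19.7% and 13.9%. Slc39a4, a zinc importer, was at 12.66, 12.92 and 12.10 against 6.26, 4.86 and 5.76 (6.93 ± 0.44) and was also higher than in spinal cord ependymal cells, by 6.03 (adjusted p = 0.000557). Slc26a3, an anion exchanger, was at least 30.4-fold higher, and Slc7a5, an amino acid transporter, fell by 5.08 ± 0.49. Without any 1 radial glia array the lower count was 14. Of 22 potassium channel genes 9 were higher and 5 lower (3 and 0 of the 9 detected on all 6 arrays), with Kcnc4, Kcnj16 and Kcnn4 at least 60.8-fold, 51.6-fold and 20.8-fold higher, and without radial glia replicate 1 the lower count was 3. Detoxification genes were higher for 26 of 62 and lower for 6, and for 19 and 4 of the 48 detected on all 6 arrays. Gstm1, a glutathione transferase, was at 13.75, 13.70 and 13.79 against 7.99, 8.44 and 8.50 (5.44 ± 0.28). Ces1d, a carboxylesterase, and Cyp4f15, a cytochrome P450, were at least 66.3-fold and 62-fold higher and also differed from spinal cord ependymal cells, by 7.03 and 6.62 (adjusted p = 8.44e-08 and 2.67e-06). Mt2, a metallothionein, rose by 4.18 ± 0.40.

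Antigen presentation and interferon response genes were higher for 12 of 25 and lower for 2, and for 5 and 2 of the 10 detected on all 6 arrays. H2-Ab1, of MHC class II, was at 8.36, 8.60 and 8.75 and at least 8.21-fold higher, and the class I gene H2-K1 at least 5.72-fold higher, while B2m, the class I light chain, read 7.52, 6.63 and 8.66 against 9.81, 9.69 and 9.45 (-2.05 ± 0.52) and lost its call on dropping any 1 radial glia array (adjusted p = 0.063 to 0.0793). Ifitm2 was the other gene that fell, and without any 1 radial glia array the lower count was 1. Of 33 immediate early and stress genes 2 were higher and 5 lower (1 and 4 of the 23 detected on all 6 arrays). Fos, at 12.98, 12.73 and 12.68 against 12.63, 12.77 and 12.55, and Egr1, at 12.73, 12.52 and 12.98 against 13.31, 13.36 and 13.24, genes that respond to cell dissociation, were high in both groups and were not called. The heat shock gene Hsp90aa1 was at least 10.8-fold higher in ependymal cells. Without radial glia replicate 1 or 2 the lower count was 2, and the higher count was 1 without ependymal replicate 2 or radial glia replicate 3.

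Cytosolic ribosomal protein genes were lower for 25 of 46 and higher for 0 (median -1.21), and 24 of the 43 detected on all 6 arrays were lower. Rpl13a was at 8.74, 9.98 and 9.70 against 12.60, 12.33 and 12.36 (-2.95 ± 0.39), whereas Rpl11 read 13.84, 14.02 and 13.88 against 13.74, 13.76 and 13.65 and was not called. Without radial glia replicate 1 or 3 the lower count was 15. Splicing factors were lower for 22 of 67 and higher for 0 (17 and 0 of the 56 detected on all 6 arrays), with Snrpa1, of the U2 particle, lower by 2.44 ± 0.35, and the count was 10, 11 or 9 without radial glia replicate 1, 2 or 3. Chromatin regulators were lower for 17 of 43 and higher for 2 (13 and 1 of the 32 detected on all 6 arrays), of which Cbx7, a Polycomb reader, rose by 4.30 ± 0.39. Mbd2, a reader of methylated DNA, was at least 12.8-fold lower and Chd3, a chromatin remodeller, fell by 4.14 ± 0.59, and the lower count was 11 without radial glia replicate 1 or 3 and the higher count 1 without radial glia replicate 2 or 3. Cholesterol and fatty acid synthesis genes were lower for 8 of 26 and higher for 0 (7 and 0 of the 22 detected on all 6 arrays), among them the sterol synthesis genes Fdps (-3.34 ± 0.35) and Nsdhl (-2.36 ± 0.45), and the count was 5 without radial glia replicate 1 or 2.

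Glycolysis and hypoxia genes were higher for 4 of 27 and lower for 5, shares near those of all genes, and for 3 and 3 of the 20 detected on all 6 arrays. Car9, a carbonic anhydrase induced by hypoxia, was detected on all 3 ependymal and 0 radial glia arrays and was at least 25.3-fold higher, while Ldha, lactate dehydrogenase (-3.14 ± 0.28), and the glycolytic gene Tpi1 (-1.45 ± 0.28) fell. Without any 1 radial glia array both counts were 2. Of 71 genes of oxidative phosphorylation subunits and assembly factors 7 were lower and 2 higher, shares under those of all genes, and all 9 were among the 65 detected on all 6 arrays. Ndufa5, of complex I, fell by 1.60 ± 0.33 but was not called on the mean of its probes (adjusted p = 0.134), and Atp5g3, at 13.80, 13.36 and 13.67 against 13.85, 13.84 and 14.03, was not called. The lower count was 2 without ependymal replicate 1 or radial glia replicate 2 and 1 without radial glia replicate 1 or 3, and the higher count was 0 without radial glia replicate 1 or 2, 1 without ependymal replicate 2 or radial glia replicate 3, and 6 without ependymal replicate 3.

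**Figure D4:**
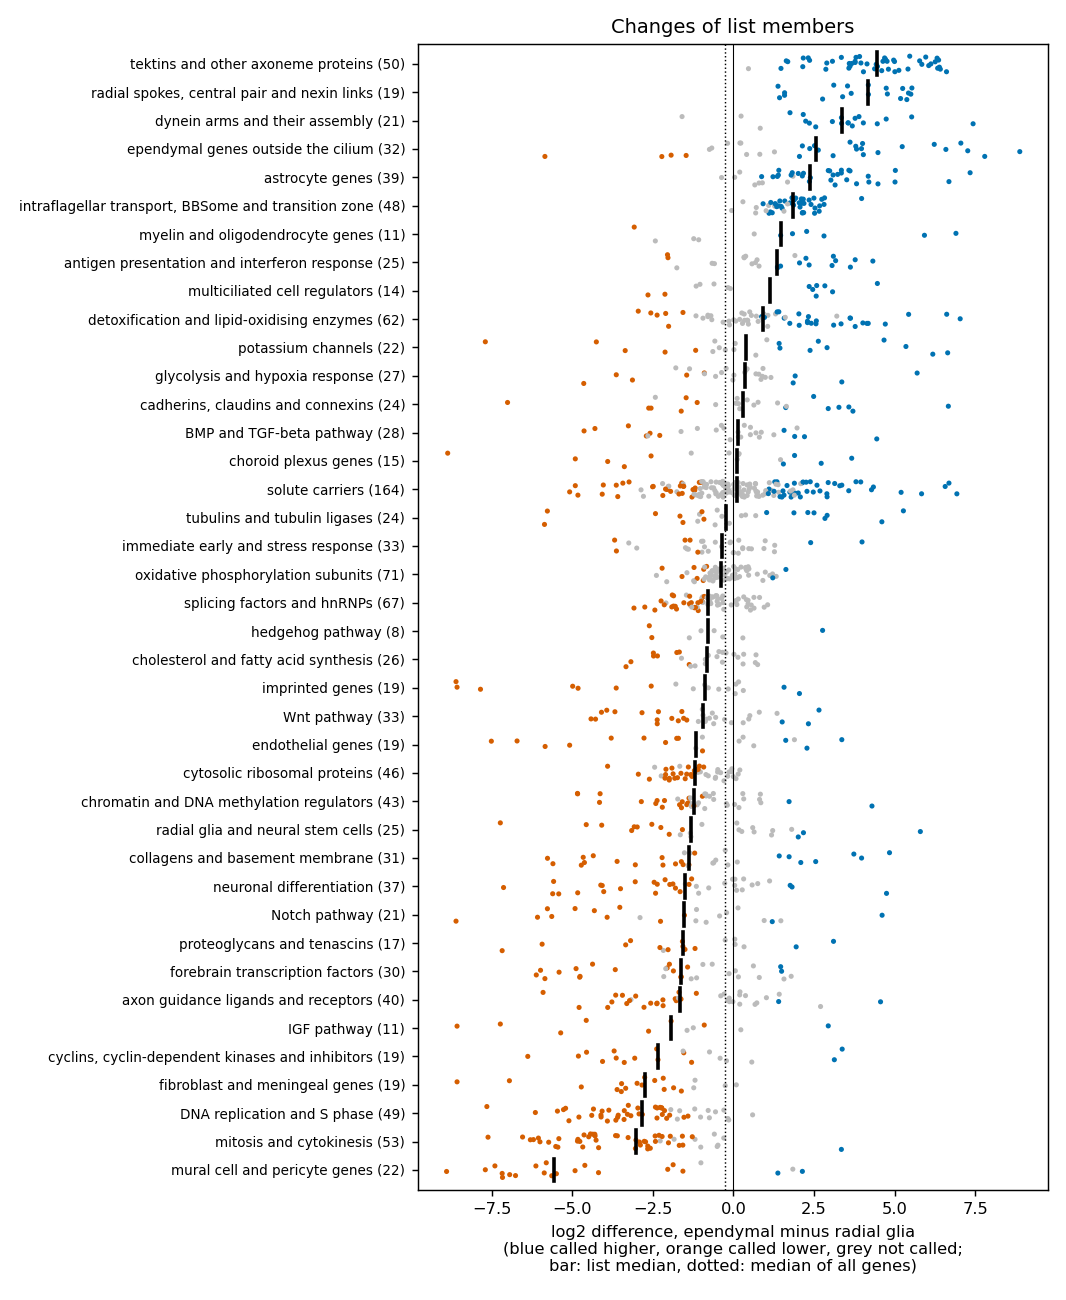
Log2 difference, ependymal minus radial glia, of every tested member of the lists with 8 or more tested genes, ordered by list median. Blue and orange points were called higher and lower, grey points were not called, bars mark list medians and the dotted line the median of all genes. Axoneme lists lie to the right, cell cycle and mural cell lists to the left, and the oxidative phosphorylation list, with a median of -0.38, close to the dotted line at -0.27.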

How the data were processed

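The raw table that the authors deposited holds, per its file header, 1 intensity and 1 detection p-value per array for 46632 probes. The submitters' processing notes list BeadStudio and lumi. The authors' other deposited table holds normalised values on a log2 scale and served only as an alternative. Intensities of all 12 arrays were background corrected with negative control statistics inferred from the detection p-values (limma 3.58.1, nec, offset 16, R 4.3.3), quantile normalised and taken to log2. Probe symbols came from the platform annotation: 29976 probes had 1 symbol, 10 several and 16646 none; only those with 1 were used. Each gene was read from its kept probe of highest mean. Of 1653 genes with several kept probes 9 had probes called in opposite directions and 486 had some probes called and some not. For such genes the call can depend on the probe taken.

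The comparison was fitted to the 6 arrays with lmFit and eBayes, two-sided, and adjusted by Benjamini-Hochberg over the 8502 genes. Spinal cord values came from a fit to all 12 arrays. For a gene undetected in the lower group the fold is a bound, set by the higher group's mean over a floor, which on each array is the lowest signal of any detected probe (the gene's own signal where that is larger). The number of arrays, 3 per group, limits the precision. The members and 43 gene lists were chosen with earlier results of these data known, and no set test was run. Genes were named by rule: sort antigens, 20 landmarks, the 12 largest changes each way, and up to 6 called members per direction and 3 uncalled members of each list; a few others were named after their values were seen. The alternatives were other background corrections, scalings, filters, probe rules, a stricter threshold, array weights, the 12-array fit, a replicate block and leaving out each array. Deviations of arrays with the same number correlated at 0.13, -0.19 and -0.10, so the numbers did not pair the arrays. The fit was tested on simulated data.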

Additional observations from a re-analysis of the deposited data

How the results depend on the processing

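The count of called genes, 3129, ran from 2670 without background correction to 3428 in the fit to all 12 arrays over the other settings, apart from the replicate block and leaving out arrays. No paired analysis was adopted because arrays of the same number did not deviate together, and with the replicate block 2648 genes were called. Without 1 array the count of called genes ran from 2131 to 3530, that of higher genes from 1079 to 1602 and that of lower genes from 1027 to 1928. Among the 24 largest changes, 4 differed between the ventricular and spinal cord ependymal groups, 7 in the authors' normalised table and 3 to 5 under the other settings. The fits to those 6 arrays alone and without each spinal cord array were chosen after seeing the data. Of the 186 called genes named, 178 were called under every setting run and 0 changed sign. The 8 that lost the call under 1 or more settings were B2m, Cdkn1a, Dlx2, Dner, Ndufa5, Pax6, Tfdp1 and Tubb2b, of which 4 did so without 1 array, and Dlx2 also without background correction, with no filter and with the replicate block. Some uncalled genes changed sign. On the mean of a gene's probes Cdk4 was at -1.39, Dnaaf1 at 2.07 and Dnaaf2 at -0.23. With median scaling Rfx3 was at 0.034. Without 1 array the difference ran from -0.20 to 0.86 for Dnaaf2, from -0.37 to 0.22 for Rfx3 and from -0.42 to 0.023 for Rpa1, and it changed sign without ependymal replicate 1 for Rfx3 and Rpa1, without ependymal replicate 2 for Dnaaf2 and without radial glia replicate 3 for Rfx3. The cause was not tested. Signals near the floor of the array limit the size of a fold, which is then a bound.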
